A study of Drosophila melanogaster with 8 samples.

Results

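The ELAV family of RNA-binding proteins has 3 members in Drosophila melanogaster, elav (FBgn0260400), fne (FBgn0086675) and Rbp9 (FBgn0010263), and each was found by its exact symbol among the 17717 features of the deposited matrix. Their transcripts were followed across 27932 cells, kept from 38531 distinct cells by 200 or more detected genes and under 20% of UMIs (unique molecular identifiers, which count molecules) from mitochondrial genes. The cells came from pools of whole stage 17 embryos (17 to 18.5 h after laying, 25 °C) carrying the drivers alrm-gal4 and 25H07-gal4 with the reporters UAS myr::GFP and UAS-redstinger::NLS, run as 4 biological replicates on 2 sequencing lanes each. All 8 libraries therefore shared 1 genotype and 1 age, with no control group, and the comparisons below are between classes of cells.

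ELAV proteins bind U-rich and AU-rich stretches of RNA through RNA recognition motifs, and their vertebrate relatives are the Hu proteins. ELAV itself is a nuclear protein of neurons, long used as a neuronal marker, that changes alternative splicing and lets transcripts run past early polyadenylation sites to longer 3′ ends. FNE ("found in neurons") is largely cytoplasmic but has a nuclear form that can take over ELAV functions, and RBP9 is known from the adult nervous system and from the female germline. Transient elav expression in neuroblasts and glia, and low elav transcription outside the nervous system, are also known from embryos.

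Cells were placed in 6 classes by gate genes, each needing at least 2 UMIs of the gate and a gate level at least 3 times that over all kept cells. The classes were 4546 neurons (nSyb, a synaptic vesicle protein), 637 progenitors (mira or dpn, genes of dividing neuroblasts), 996 glia (repo, the glial transcription factor), 1182 muscle cells (Mhc, myosin heavy chain), 5659 hemocytes (Pxn, the matrix enzyme peroxidasin) and 944 epidermal cells (7 of 9 cuticle panel genes found in the matrix). A further 767 cells passed more than 1 gate and were left out as possible doublets, and 13201 passed none. The summed markers of each class were highest in the class they name. The 5 neuronal markers reached 7871 CPM (UMIs of the genes per 1000000 UMIs of the class) in neurons, against 1198 CPM in progenitors, 1379 CPM in glia and 102 CPM in muscle. In progenitors the 5 progenitor markers summed to 1059 CPM, below the neuronal markers. The midgut markers mex1 and GATAe summed to 256 CPM in muscle, against 9.38 CPM in progenitors, the next highest class. No source ties the 8 barcode suffixes to the named replicates. Suffixes n and n + 4 shared at least 99.6% of the smaller barcode list and other suffix pairs at most 0.42%, so they were joined into 4 library pairs, and the matrix was treated as 1 pooled sample with no test of a difference between classes. Median depth was 3352.5 UMIs per neuron, 4131 per progenitor, 8485 per glial cell, 3259 per muscle cell, 4353 per hemocyte and 4654.5 per epidermal cell. Library pair 1 stood apart in its makeup, with 282 of the neurons against 1233 to 1619 in each of the other pairs, so the values the results turn on are given by pair.

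Most UMIs of the family came from fne, followed by elav, and Rbp9 gave few. Over all kept cells fne had 189958 UMIs (823 CPM), elav 84241 (365 CPM) and Rbp9 1499 (6.49 CPM). Neurons held 54.8% of all fne UMIs and 41.2% of elav UMIs but only 7.87% of Rbp9 UMIs, while muscle held 48.4% of the Rbp9 UMIs. Levels are per UMI of a 3′-end assay and carry no length correction, so they rank each gene over cells rather than the genes against each other.

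elav levels in neurons and in progenitors overlapped, and both classes stood far above the rest. By library pair it stood at 1511, 1374, 1374 and 1294 CPM in neurons, against 1511, 1227, 1410 and 1138 CPM in progenitors. The pairs overlapped and only 2 of 4 were higher in neurons. The pooled levels were 1354 CPM (exact Poisson 95% interval 1340 to 1368) in neurons and 1296 CPM (1266 to 1326) in progenitors, a log2 ratio of 0.06 (0.03 to 0.10) whose SD over the 4 pairs was 0.11. The sign of this ratio turned in 5 of the other settings tried, and with classes taken from clusters it was 0.69, with 2.11 for fne. All intervals here cover counting error only, and they are too narrow where 1 molecule was counted on both lanes.

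**Figure D1:**
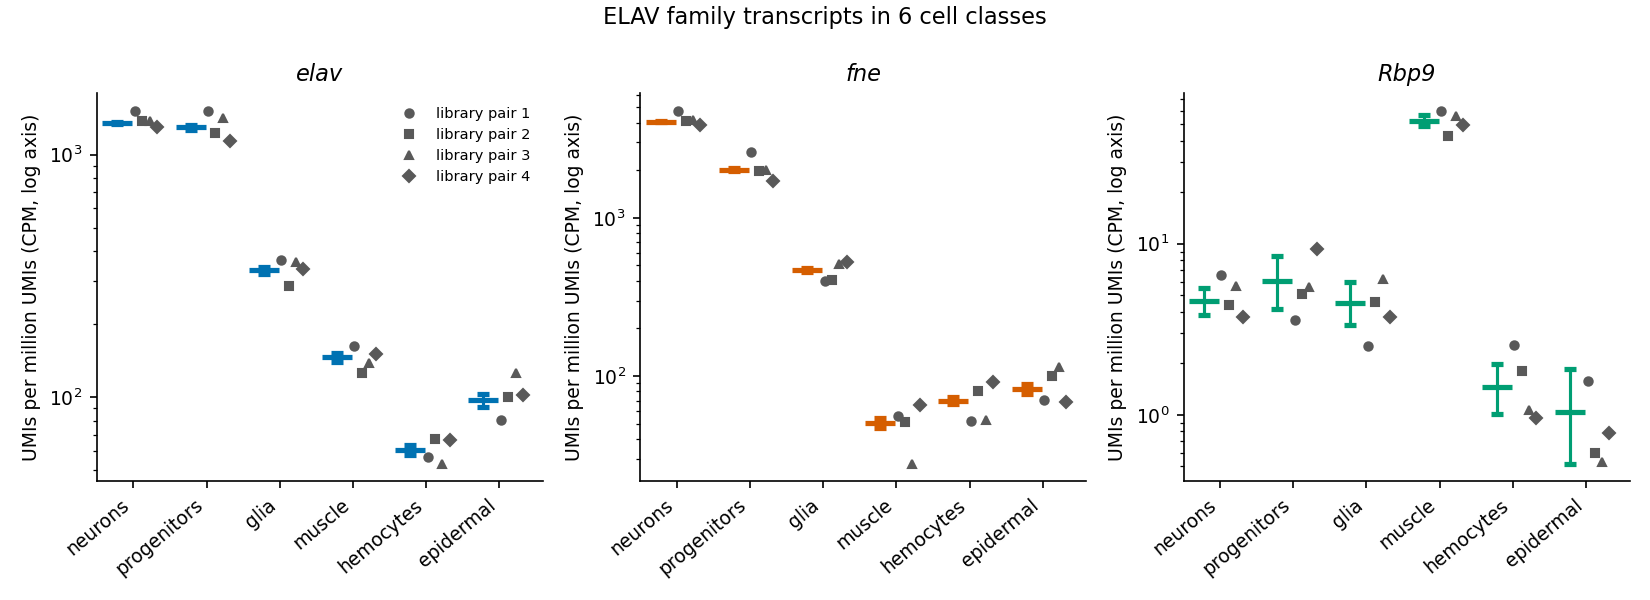
Levels of elav, fne and Rbp9 (CPM, log axes) in 6 cell classes. Coloured marks are pooled values with exact Poisson 95% intervals and grey symbols are the 4 library pairs, and neurons and progenitors overlap for elav at 1138 to 1511 CPM, neurons stand above progenitors for fne, and muscle stands above every other class for Rbp9.

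Outside neurons and progenitors elav was lower, with an order among the classes. Glia had 287 to 366 CPM over the 4 pairs, muscle 126 to 163 CPM, epidermal cells 80.7 to 125.5 CPM and hemocytes 53.2 to 66.9 CPM. None of these ranges overlapped its neighbour in the order. The log2 ratio of neurons over glia was 2.02 (pairs 1.93 to 2.26), over muscle 3.21 (3.1 to 3.44), over epidermal cells 3.8 (3.45 to 4.23) and over hemocytes 4.48 (4.28 to 4.74).

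fne levels in neurons and progenitors did not overlap, unlike those of elav. fne reached 4720, 4100, 4124 and 3875 CPM in the neurons of the 4 pairs, against 2601, 1983, 2000 and 1720 CPM in the progenitors. Every pair was higher in neurons and the ranges did not overlap, with a pooled log2 ratio of 1.01 (0.98 to 1.04, SD over pairs 0.13). Glia held 468.5 CPM, and the other classes lay together at the bottom: 83.1 CPM in epidermal cells (68.9 to 114.97 over pairs), 70.1 CPM in hemocytes (52 to 92.4) and 50.6 CPM in muscle (28.1 to 65.5). By these sums hemocytes overlapped both neighbours, while muscle was below epidermal cells in every pair with no overlap. The low place of muscle did not hold under other settings. Without the deepest 8% of kept cells fne was 145.6 CPM in muscle, 112.4 CPM in epidermal cells and 70.1 CPM in hemocytes. By a mean over cells muscle, at 201.7 CPM, was also above epidermal cells and hemocytes. After thinning to 500 UMIs fne was seen in 6%, 4.53% and 2.53% of muscle cells, epidermal cells and hemocytes. Of the 1794 hemocyte fne UMIs, 940 came from 149 cells of 1 cluster (c31), and the larger hemocyte clusters had 24.3 to 36.2 CPM. The neuron level was 8.66 times that of glia, 48.9 times that of epidermal cells, 57.9 times that of hemocytes and 80.2 times that of muscle. The muscle value depended on how cells were weighted, since a mean over cells in place of summed UMIs brought the log2 ratio of neurons over muscle to 4.36 for fne, against 6.32 by sums, and to 2.46 for elav, against 3.21.

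Rbp9, a member known from adult neurons and the ovary, was highest in muscle. Muscle had 59.6, 42.4, 55.8 and 49.7 CPM over the 4 pairs, and neurons had 6.56, 4.36, 5.64 and 3.73 CPM. Muscle was higher in all 4 pairs with no overlap, and the pooled log2 ratio of neurons over muscle was -3.51 (-3.80 to -3.23), an 11.4-fold higher level in muscle. Progenitors (6.07 CPM), neurons (4.6 CPM) and glia (4.52 CPM) could not be ordered, because both their counting intervals and their pair ranges overlapped. Hemocytes (37 UMIs, 1.45 CPM) and epidermal cells (11 UMIs, 1.04 CPM) were lower than neurons in every pair, although the epidermal value rests on few UMIs and the ratio came to 0.11 when classes were taken from clusters, against 2.15 by gates.

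Read against all features, a level at least 2 times higher in neurons was common. Between neurons and progenitors 20% of 8038 features with 100 or more UMIs were that much higher in neurons, and 1 of the 3 members, fne, was among them. Over glia the share was 23.1% and elav and fne passed. Over muscle it was 37.7%, with the same 2 genes, and 26.7% of features were at least 2 times higher in muscle, Rbp9 being the member there. Over hemocytes (47.4%) and epidermal cells (52.6%) all 3 members passed, in comparisons where these are the shares of all features that did so. The features with a higher ratio than fne were 19.8% over progenitors, at the edge of those that passed, and 3.19% to 5.32% over the other 4 classes. For elav they were 41.7% over progenitors and 11% to 13.6% over the others.

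Shares of cells with a UMI were also compared at matched depth. At full depth 92.2% of neurons and 84.6% of progenitors held an elav UMI, but so did 34% of epidermal cells and 17.8% of hemocytes, which should lack the protein. After each cell was thinned to 500 UMIs, with 26 shallower neurons and 7 shallower progenitors left out, elav was seen in 45.4% of neurons, 41.4% of progenitors, 11.6% of glia, 10.2% of muscle cells, 4.53% of epidermal cells and 3.01% of hemocytes. For fne the thinned shares were 79.6% of neurons and 44.3% of progenitors, against 10.2% of glia, 6% of muscle cells, 4.53% of epidermal cells and 2.53% of hemocytes. Rbp9 was seen in 3.97% of thinned muscle cells (exact binomial 95% interval 2.91% to 5.28%) and in 0.177% of thinned neurons (0.0764% to 0.348%), and in 0 of 630 thinned progenitors, which allows a share of up to 0.476% at that depth. At full depth it was found in 29.3% of muscle cells, 2% of neurons and 4.4% of progenitors.

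Most neurons held UMIs of both elav and fne. At 1000 UMIs per cell, 64.4% of neurons held both, 27.3% held fne alone, 4.67% held elav alone and 3.69% held neither. elav was seen in 70.3% of the neurons with fne and in 55.9% of those without, and over neurons the UMIs of both genes had a Pearson r of 0.08, a description only. In progenitors the picture was more even, with 39.5% holding both, 19.7% elav alone, 17.2% fne alone and 23.6% neither.

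The ratio of elav to fne UMIs within a class needs no scaling to total UMIs, and it differed among neural cells. Neurons had 0.334 elav UMIs per fne UMI, with 0.320 to 0.335 over the 4 pairs. Progenitors had 0.643, with 0.581 to 0.705 over the pairs, so that no pair of either class overlapped the other. The 397 progenitors with no nSyb UMI had 1.07 (exact conditional binomial 95% interval 1.00 to 1.14), against 0.566 (0.547 to 0.586) in the 240 progenitors with nSyb UMIs. elav was 1054 CPM without nSyb UMIs (774 to 1349 over pairs) and 1405 CPM with them (1163 to 1718), ranges that overlapped. fne was 984 CPM without (731 to 1493) and 2482 CPM with nSyb UMIs (1981 to 3628), ranges that did not. The first group was also shallower, with a median of 2677 UMIs against 9068, and had 605 CPM summed over 18 neuronal genes, against 5370 CPM. The part of depth and of these neuronal transcripts was not tested.

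The highest elav level of any group examined was outside the 6 classes. The group comprised 140 cells that passed no gate, held at least 2 UMIs of nerfin-1, a zinc finger gene switched on in new neurons, and had no nSyb UMI. Their elav level was 3379 CPM (3221 to 3544), with 2118 CPM in library pair 1 and 3965 to 4108 CPM in the other 3, and their fne level was 2878 CPM (2478 to 3310 over the pairs). Each pair was above the neurons for elav and below the neurons for fne, whose pooled values were 1354 and 4058 CPM. The ratio was 1.17 (0.772 to 1.60 over pairs), and after thinning to 500 UMIs elav was seen in 80.7% of these cells and in 45.4% of neurons.

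Among neurons the levels lay close together over bins of nSyb UMIs, which also sorted the cells by depth. elav was 1246 to 1395 CPM and fne 4005 to 4257 CPM over 4 bins. The bins ran from the neurons with 2 or 3 nSyb UMIs to those with 16 or more. Median depth rose from 1674 UMIs in the first bin to 12388.5 in the last, while nSyb was 1499 and 1978 CPM. Split by nSyb UMIs after thinning to 500 UMIs (0, 1, 2, and 3 or more), fne was 3873, 4065, 4252 and 4373 CPM. Over the same split elav was 1345, 1361, 1363 and 1339 CPM, and the pair ranges overlapped for both genes. By transmitter, elav was 1297 CPM in 1558 cholinergic neurons (ChAT and VAChT), 1312 CPM in 622 GABAergic neurons (Gad1 and VGAT), 1348 CPM in 487 glutamatergic neurons (VGlut) and 1403 CPM in 90 monoaminergic neurons (Vmat, ple and SerT). fne spread a little more, from 3687 CPM in cholinergic to 4504 CPM in GABAergic neurons. Neurons with calls for several transmitters were left out of these groups. The 684 neurons with no transmitter call had pooled levels below all of these groups. They had 1072 CPM of elav (931 to 1307 over the pairs) and 3297 CPM of fne (2897 to 3961). They were also shallower, with a median of 1830 UMIs against 2512 to 3336.5 in the groups with a call. The part of depth in this difference was not tested. Sensory neurons had less fne: 179 neurons with ppk, a channel subunit of dendritic arborization neurons, had 2257 CPM (2208 to 3260 over the pairs) with an elav level of 1276 CPM. The 40 neurons with the chordotonal channel genes nan or iav had 1686 CPM of fne and 806 CPM of elav, and none of them came from library pair 1. Both sensory groups were deeper than neurons as a whole, with medians of 7387 UMIs for ppk and 14992.5 for nan or iav, against 3352.5. The part of depth in the sensory levels was not tested.

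**Figure D2:**
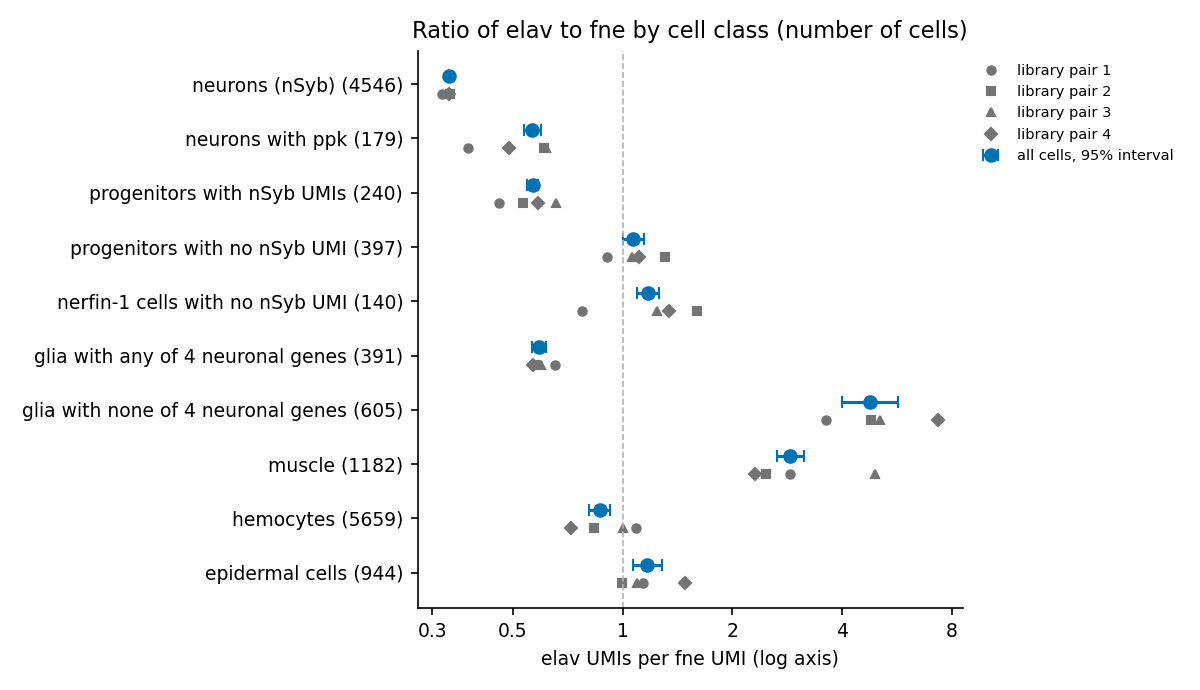
elav UMIs per fne UMI (log axis) in cell classes and their splits, with the number of cells in brackets, blue points for pooled ratios with exact conditional binomial 95% intervals and grey symbols for the 4 library pairs. Neurons lie at 0.334, progenitors and nerfin-1 cells with no nSyb UMI near 1, and glia with no UMI of nSyb, Rdl, Frq1 and Nckx30C at 4.76.

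Glia were divided by whether they held a UMI of 4 neuronal genes. The 391 glia with a UMI of nSyb, Rdl, Frq1 or Nckx30C had 481 CPM of elav and 817.5 CPM of fne. The 605 glia with none of these had 147.5 CPM of elav (112 to 212 over the pairs) and 31 CPM of fne (14.9 to 58.3). Summed over the 18 genes of a neuronal list they had 305 CPM, against 6183 CPM in the first group. Rdl, Frq1 and Nckx30C belong to both the split and the list. They therefore add nothing to the list sum of the 605 glia, and part of the difference in that sum follows from the split. elav UMIs per fne UMI were 0.589 (0.562 to 0.616) in the first group and 4.76 (3.99 to 5.71) in the second, and 2.39 in the second when every cell was thinned to 500 UMIs. The pair ranges of the 2 groups did not overlap for either gene. The first group was also deeper, with a median of 13191 UMIs against 6574, and the part of depth in the split was not tested. Within the second group, the 277 glia with moody, a receptor of subperineurial glia, had 152 CPM of elav and 25.8 CPM of fne, beside 302 CPM summed over the neuronal list.

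A neuronal list of 18 genes, among them Syt1, brp, para, Gad1 and VGlut, was set beside the members, each gene as a percentage of its own level in neurons. In muscle elav stood at 10.8% of its neuron level, and 1 of the 18 genes, Frq1, was higher at 24.0%, with a list median of 1.57%. In hemocytes elav stood at 4.48%, the list median was 1.56%, and Cadps alone was higher at 10.6%. In epidermal cells elav at 7.16% lay above all 18 genes, whose median was 2.64% and maximum 6.76%. fne lay within the range of the list, at 1.25% in muscle, 1.73% in hemocytes and 2.05% in epidermal cells, with 12, 4 and 14 of the 18 genes above it.

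In glia elav was at 24.6% and fne at 11.5%, against a list median of 16.9%, and in progenitors they were at 95.7% and 49.7%, both above the highest of the 18 genes (VGlut, 40.2%). By sums, 2 of the 18 genes lay above elav in glia. With means over cells in place of sums, 1 of the 18 genes lay above it in each of muscle, hemocytes, epidermal cells and glia, and none in progenitors. In epidermal cells that gene was Cadps, at 8.36% against 7.59% for elav, so the place above all 18 genes was held by sums only. In cells with no UMI of nSyb or of any gene of the list, elav was 150 CPM in 295 muscle cells, 134 CPM in 162 glia, 51.7 CPM in 446 epidermal cells and 43.6 CPM in 2756 hemocytes. In the same cells fne was 104 CPM, 28.9 CPM, 21.1 CPM and 21.3 CPM in that order. Against the whole class fne was higher in muscle (50.6 CPM over all muscle cells) and lower in glia, epidermal cells and hemocytes. All were shallower than their class, with medians of 1665, 3224.5, 3057.5 and 3986.5 UMIs in that order. The 142 progenitors with no UMI of nSyb or of the list held 460 elav and 468 fne UMIs. That is a ratio of 0.983 (0.921 to 1.24 over the pairs), and their median was 2202.5 UMIs against 4131 in the class. The part of depth was not tested. The elav locus (BDGP6.54, X:509235-523226, minus strand) lies almost wholly within arg (X:509435-528028, plus strand), the arginase gene, and whether counting used strand is not given in the sources used here. The noncoding gene lncRNA:enrr (X:513106-523226, minus strand) overlaps elav by 10121 bases on the same strand and is absent from the matrix. Its part in the elav counts was not tested. arg had 11.4 CPM in neurons, 13.5 CPM in muscle, 16.1 CPM in glia and 4.92 CPM in epidermal cells, but 55.9 CPM in hemocytes, where elav was 60.6 CPM. The part of arg in the elav counts was not tested.

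**Figure D3:**
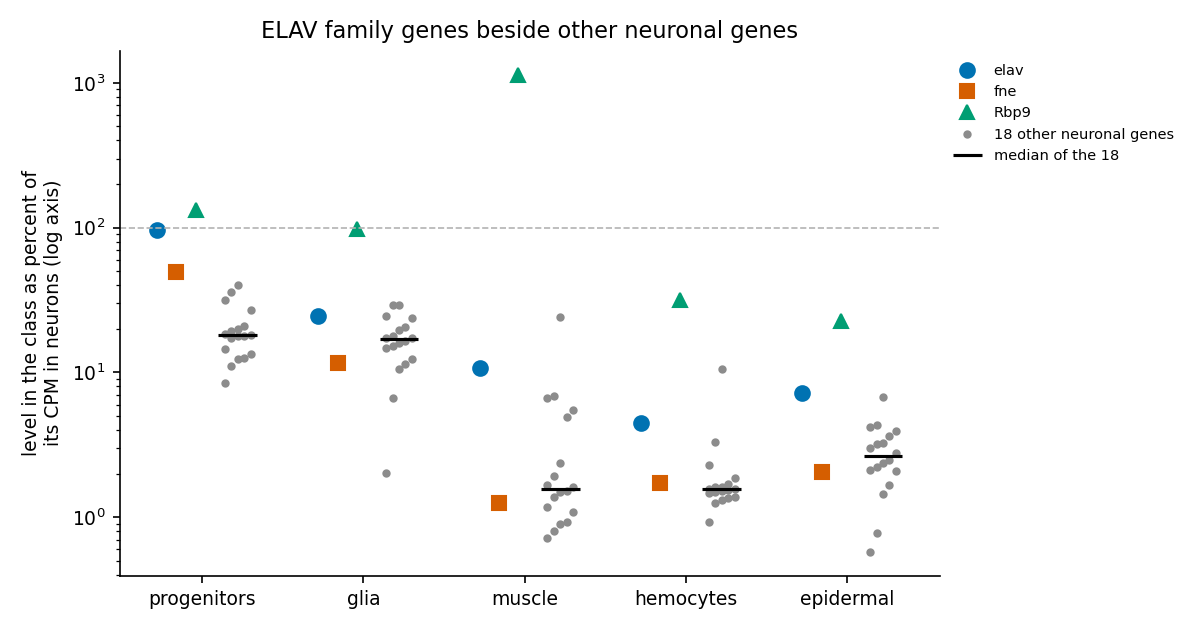
Level of each gene in 5 classes as a percentage of its CPM in neurons (log axis), for elav, fne, Rbp9 and the 18 genes of the neuronal list (grey, with their median as a bar), the dashed line marking 100%. By these summed UMIs elav sits above 17 of the 18 genes in muscle and hemocytes and above all in epidermal cells, fne sits among them, and Rbp9 in muscle is at 1139%.

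One hemocyte cluster stood above the other large ones for both genes. Of the gated hemocytes, 149 fell in a hemocyte-like cluster (c31) with skl, a cell death gene, and nAChRbeta3, a neuronal receptor subunit, among its leading genes. They had 389.5 CPM of elav and 1037 CPM of fne, a ratio of 0.376 (0.311 to 0.467 over pairs), beside 0.334 in neurons, and hemocytes in the larger clusters c9, c10 and c16 had 38.6 to 53.2 CPM of elav, 24.3 to 36.2 CPM of fne and ratios of 1.47 to 1.82.

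Muscle was the class with most Rbp9, and within muscle its level was ordered by Mhc. Of the muscle cells, 112 fell in cluster c14 and 65 in cluster c35, which also passed both midgut markers. Those cells held 93 and 85 of the 726 muscle Rbp9 UMIs, and 356 and 255 of the 2020 muscle elav UMIs. In 3 groups of 394 cells by the Mhc share of their UMIs, muscle cells had 22.7, 46.8 and 104 CPM of Rbp9 from the lowest to the highest Mhc share. The ranges over library pairs were 15 to 28.5, 36.1 to 60.2 and 92.9 to 116 CPM, with no overlap. By summed UMIs elav had the same order, at 106, 134 and 220 CPM, and the pair range of the highest group (208.5 to 230 CPM) lay above those of the other groups, which overlapped each other. fne was at 63, 38.7 and 45.7 CPM with ranges that overlapped. nSyb was at 21, 18.4 and 26.9 CPM and the neuronal list summed to 819, 813 and 910 CPM. Without the deepest 8% of kept cells, an alternative chosen after seeing the data, Rbp9 was 39.4, 61.1 and 112 CPM, elav 216, 147 and 267 CPM and fne 264, 97.1 and 98.2 CPM. By a mean over cells Rbp9 was 33.9, 58.9 and 116 CPM, elav 289, 180 and 238 CPM and fne 384, 139 and 82 CPM. After thinning to 500 UMIs, elav was seen in 11.4%, 6.82% and 12.3% of the cells and fne in 9.14%, 4.99% and 3.63%. Rbp9 was seen in 1.27%, 2.89% and 8.1%. Rbp9 had the same order under these settings, elav did not, and fne by means and by thinned shares ran from highest in the lowest Mhc group to lowest in the highest. Over all muscle cells there were 2.88 elav UMIs per fne UMI (2.30 to 4.91 over pairs), but 1.44 without the deepest 8% of kept cells and 1.18 after thinning to 500 UMIs.

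**Figure D4:**
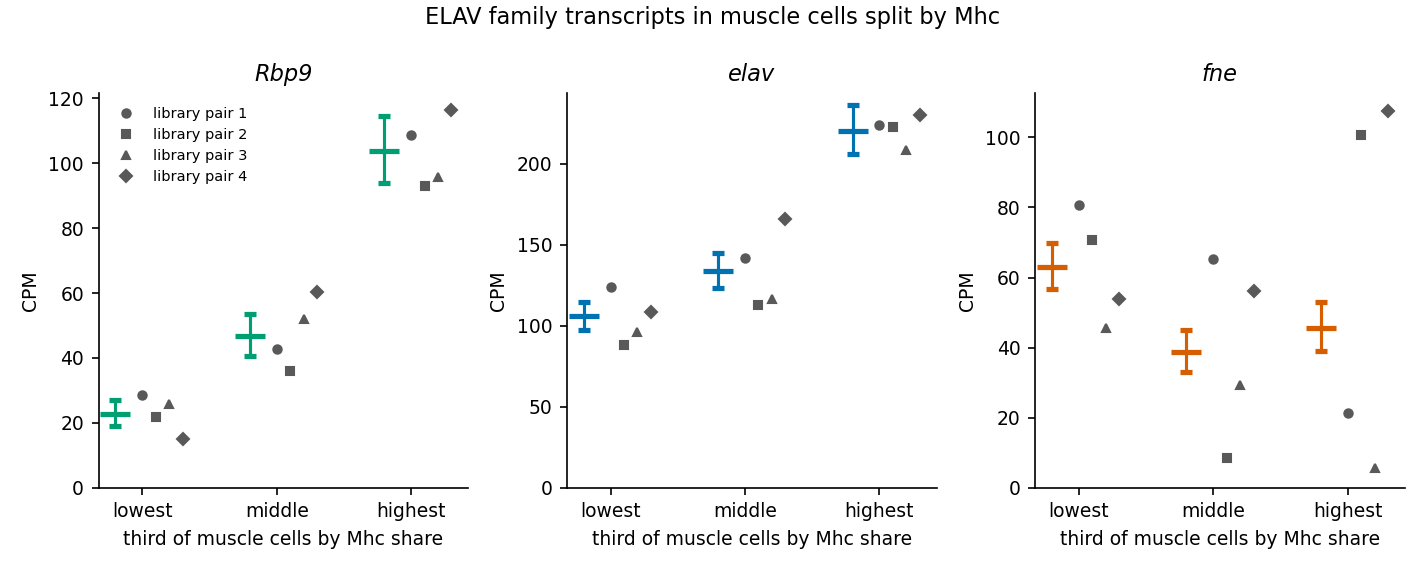
Levels of Rbp9, elav and fne (CPM) in muscle cells split into 3 groups of 394 by the Mhc share of their UMIs, from lowest to highest, with pooled values and exact Poisson 95% intervals in colour and the 4 library pairs in grey. Rbp9 stands at 22.7, 46.8 and 104 CPM, elav by these sums is highest in the highest group at 220 CPM, and the fne pairs overlap.

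The Rbp9 gene (2L:2954762-2968434, plus strand) overlaps the 3′ end of Ts, the thymidylate synthase gene on the other strand, by 142 bases. Ts had 31.8, 19.6 and 3.7 CPM over the same groups, the opposite order to Rbp9. By class Ts was highest in muscle, as Rbp9 was, at 20.3 CPM. It had 18.2 CPM in progenitors, where Rbp9 was 6.07 CPM, and 0.546 to 1.32 CPM in the other classes. The part of Ts in the Rbp9 counts was not tested. fne (X:12917477-12950417, plus strand) overlaps only a transposable element in the annotation.

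Over 39 clusters built without the members, the 3 genes peaked in different places. fne was highest in the neuron-like clusters c5 (4903 CPM, led by cmpy, Lim1 and robo3) and c1 (4630 CPM). elav was highest in c8 (1947 CPM, unnamed, led by the cell death genes skl and rpr) and c3 (1774 CPM, unnamed, with wor, dpn, mira and nerfin-1 among its leading genes). Both exceeded the 1443 CPM of c1 and 1434 CPM of c5. Rbp9 was highest in the muscle-like clusters c15 (92.2 CPM, led by Mf, Act87E and up) and c12 (49.1 CPM, led by sing and lmd, genes of fusing myoblasts).

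The next cluster for Rbp9 was c30, at 27.5 CPM with 25.7 to 34.3 CPM over the 4 pairs. It is unnamed, its 226 cells are led by wisp, plu and CycB, egg and cell cycle genes, and it alone passed both germ cell markers, vas and nos. Among the neuron-like clusters Rbp9 was highest in the ppk cluster c20, at 10.7 CPM (8.64 to 13.1 CPM over pairs), against 1.39 to 6.01 CPM in the other 3 (c1, c5 and c33). This cluster also passed 4 glial markers, and of its 92 Rbp9 UMIs 25 came from its 81 gated glia and 22 from its 451 gated neurons. The gated ppk neurons had 4.33 CPM of Rbp9, within the range of the other neuron-like clusters.

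**Figure D5:**
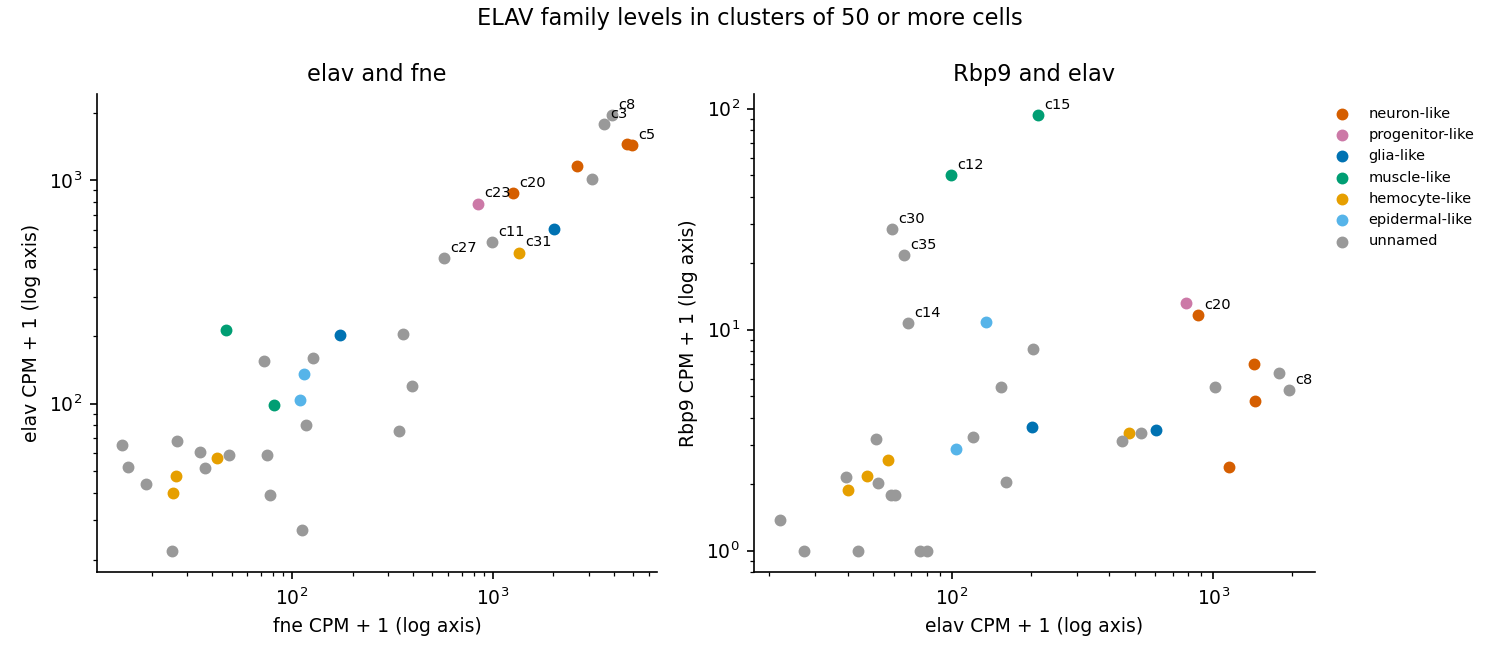
Levels in the clusters of 50 or more cells (CPM + 1, log axes), coloured by cluster name, with elav against fne on the left and Rbp9 against elav on the right. Clusters c3, c5 and c8 sit at the top right for elav and fne, and the muscle-like clusters c15 and c12 stand highest for Rbp9 at 92.2 and 49.1 CPM.

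Across the 37 clusters of 50 or more cells, the gene with the pattern most like fne was Appl, the fly relative of the amyloid precursor protein (Pearson r of log2 levels 0.98), followed by CG4467, CG6024, scrt and CG9919. For elav they were Rdh (0.96), tow, CG43066, miple1 and CG13293. For Rbp9 they were CG5376 (0.89), CG5886, sqa, CG9194 and cmb. Among 8128 ranked features fne was 82nd for elav (r = 0.93), while Rbp9 had r of 0.12 with elav and -0.08 with fne. The clusters share libraries and differ in depth, and these values are descriptions only.

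Other RNA-binding proteins of the fly were set beside the members. Of 20 on the list, 7 were at least 2 times higher in neurons than in progenitors, 1 was at least 2 times lower and 12 lay between, with a median log2 ratio of 0.58 against -0.19 over all features, of which 20% were at least 2 times higher. shep, Rbp6 and bru3 were among the higher ones: shep, a neuronal RNA-binding protein of neurite remodelling, had 4641 CPM in neurons and 1601 CPM in progenitors, and Rbp6, a Musashi relative, had 3066 CPM in neurons and 853 CPM in progenitors. brat, a translational repressor of neuroblast daughters, was among those between, with 581 CPM in neurons and 1104 CPM in progenitors. Over muscle 15 of 19 tested genes were at least 2 times higher in neurons, against 37.7% of all features, and 2 at least 2 times lower, bru2 with 46.7 CPM in neurons and 169 CPM in muscle, and how, the Held out wings gene needed for muscle and glia, with 75.3 CPM in neurons and 424 CPM in muscle.

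Genes whose RNA processing is known to depend on ELAV were measured only as gene totals, so the form of their transcripts was not seen. Of 9 such genes, 1 (mei-P26) was at least 2 times higher in neurons than in progenitors and 8 lay between, with a median log2 ratio of 0.10, where 20% of all features were that much higher. Over glia 7 of 9 were at least 2 times higher in neurons, against 23.1% of all features, and Nrg, a neuronal and glial adhesion molecule, was among the other 2, with 1038 CPM in neurons and 1861 CPM in glia. Over muscle all 9 were at least 2 times higher, against 37.7% of all features, with a median log2 ratio of 1.95 against 0.40 over all features. Over hemocytes 5 of 9 were at least 2 times higher, against 47.4% of all features, and over epidermal cells 7 of 9, against 52.6%.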

How the data were processed

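The deposited matrix holds raw UMI counts that the authors made with Cell Ranger 3.1.0 on build BDGP6, described as counting protein-coding reads, although the matrix also holds UMIs of lncRNA, asRNA and rRNA features, and merging 4 replicates sequenced on 2 lanes each with its aggregate function. Whether that step equalised depth is not given in the sources used here. Libraries held 26261446 to 36130722 UMIs each. Counts under suffixes n and n + 4 of a barcode were summed to 1 cell. A molecule can appear on both lanes: of neurons with 1 elav UMI under suffixes 1 to 4, 67.2% also had one under suffixes 5 to 8. Counting intervals are therefore too narrow, and a limit of 2 UMIs, as in the gates, could be met by 1 molecule.

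CPM is the summed UMIs of a gene per 1000000 UMIs of the cells. The splits of progenitors and of muscle and the nerfin-1 cells were chosen after the values were seen. Intervals are 95% exact Poisson, Clopper-Pearson or conditional binomial. Each library pair's log2 ratio had 0.5 UMIs added. No p-value was computed, since the matrix is 1 pooled sample and 4 pairs could not give an exact p under 0.125. No doublet caller was run. Thinning drew 500 or 1000 UMIs per cell without replacement. Clusters were built in scanpy 1.11.5 without the members (3000 variable genes, 50 principal components, Leiden resolution 1.0) and named only where at least 3 markers of a class passed. A class cut on a gate has an edge: 1307 neurons lay within 1.5 times the nSyb limit, with 1293 CPM of elav, and 831 cells lay just under it, with 900.5 CPM. Genes named are the members, gate, marker and listed genes, the genes used for splits, and the 5 most like each member. Leading genes of clusters, taken from these same data, and genes that overlap a member in the annotation are also named. Members and lists were chosen with earlier results of these data known. Coordinates are from Ensembl BDGP6.54.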

Additional observations from a re-analysis of the deposited data

Results flagged for a closer look

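In each group of 4 library pairs, the highest or lowest value was set against the other 3 by Dixon's test, which chance passes in about 1 of 20 groups. It was passed in 9 of 98 groups, and 8 of the 9 values were in library pair 1, the pair with fewest neurons.

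For elav, the nerfin-1 cells with no nSyb UMI had 2118 CPM in pair 1 and 3965 to 4108 CPM in the others, and neurons had 0.320 elav UMIs per fne UMI in pair 1 and 0.333 to 0.335 in the others. For fne, ppk neurons had 3260 CPM in pair 1 and 2208 to 2245 CPM in the others, and 55.8% of progenitors held a UMI after thinning to 500 UMIs in pair 1, against 40.8% to 41.3% in the others.

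The other 5 values were for Rbp9 and rest on few UMIs. Cholinergic neurons had 16.7 CPM in pair 1 and 5 to 6.44 CPM in the other pairs. The log2 ratio of neurons over glia, with no UMI added, was 1.38 in pair 1 and -0.14 to -0.00077 in the others. After thinning, a UMI was found in 0.285% of epidermal cells and 0.265% of hemocytes in pair 1, and in 0.398% of glia in pair 4, with none in the other pairs. With no UMI in the other pairs any UMI passes the test, so its chance rate does not apply to these shares.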

How the results depend on the processing

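Each log2 ratio of neurons over another class was recomputed under 15 alternatives, except that Rbp9 over progenitors had no value from thinned sums, since no progenitor kept an Rbp9 UMI. Of 224 values for 15 ratios, 162 kept their sign and moved by less than 1 SD over library pairs. A further 52 kept their sign and moved by 1 SD or more, up or down. The other 10 changed sign, whatever the size of the move. Of the UMI ratios, 72 of 94 for elav per fne and 70 of 78 for Rbp9 per fne moved by less than 1 SD. The 10 changes of sign were in elav over progenitors and in Rbp9 over glia and progenitors, whose values lay near 0 or had wide intervals. No fne ratio changed sign. Causes were not tested.

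With a mitochondrial limit of 10% and 50 to 3000 genes, the log2 ratios were 2.47 over glia, 2.91 over muscle and -0.0049 over progenitors for elav, 3.95 over glia, 6.47 over hemocytes, 5.50 over muscle and 1.20 over progenitors for fne, and -4.33 over muscle for Rbp9. elav UMIs per fne UMI were then 0.317 in neurons, 0.731 in progenitors, 0.889 in glia and 1.12 in hemocytes.

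With classes from clusters, the log2 ratios were 3.42 over epidermal cells, 2.84 over muscle and 0.69 over progenitors for elav, 5.02 over epidermal cells, 2.48 over glia, 5.28 over hemocytes and 2.11 over progenitors for fne, and 0.11 over epidermal cells, 1.24 over glia and 2.37 over hemocytes for Rbp9. elav UMIs per fne UMI were 0.35 in neurons, 0.934 in progenitors and 0.472 in glia, and Rbp9 UMIs per fne UMI were 0.0017 in neurons, 0.0145 in progenitors, 0.00402 in glia and 0.051 in epidermal cells.

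With other gates ignored, the log2 ratios were 1.44 over glia, 4.2 over hemocytes and -0.079 over progenitors for elav, and 4.91 over epidermal cells, 2.09 over glia, 5.28 over hemocytes, 5.71 over muscle and 0.42 over progenitors for fne. elav UMIs per fne UMI were 0.351 in neurons, 0.497 in progenitors, 0.55 in glia and 0.926 in epidermal cells, and Rbp9 UMIs per fne UMI 0.00487 in glia. With a gate of 5 times the overall level, the log2 ratios over progenitors were -0.14 for elav and 0.70 for fne, that over muscle was -3.78 for Rbp9, elav UMIs per fne UMI were 0.315 in neurons and 0.564 in progenitors, and Rbp9 UMIs per fne UMI 0.005 in glia. With a gate of 3 UMIs the Rbp9 ratio over glia was -0.16.

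Without the deepest 8% of kept cells, the log2 ratios were 2.23 over glia and 2.69 over muscle for elav, 5.19 over epidermal cells, 3.57 over glia and 4.82 over muscle for fne, and 1.37 over epidermal cells and -4.15 over muscle for Rbp9, and elav UMIs per fne UMI were 0.7 in progenitors, 0.838 in glia and 1.44 in muscle. With a mean over cells they were 2.21 over glia and 2.46 over muscle for elav, 5.17 over epidermal cells, 3.73 over glia, 4.36 over muscle and 1.28 over progenitors for fne, and -4.05 over muscle and 0.015 over progenitors for Rbp9. With sums of cells thinned to 500 UMIs they were 2.26 over glia, 2.36 over muscle and -0.013 over progenitors for elav, 4.99 over epidermal cells, 3.94 over glia, 4.30 over muscle and 1.18 over progenitors for fne, and 0.85 over epidermal cells, 0.99 over glia and -4.38 over muscle for Rbp9.

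With suffixes 1 to 4 only, the ratios were -0.036 over progenitors for elav and 1.44 over epidermal cells for Rbp9. With suffixes 5 to 8 only, Rbp9 ratios were 3.43 over epidermal cells and -0.33 over glia, Rbp9 UMIs per fne UMI 0.00437 in epidermal cells and 0.0125 in glia, and elav UMIs per fne UMI 0.344 in neurons. Leaving out each library pair in turn gave Rbp9 log2 ratios of 1.86 to 2.80 over epidermal cells (2.80 without pair 1), -0.10 to 0.13 over glia (-0.10 without pair 1) and -0.57 to 0.013 over progenitors (0.013 without pair 4). No paired analysis was possible between groups of samples because all libraries share 1 condition and no source ties suffixes to the named replicates. The classes were compared within each library pair, as values with no test.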

Other observations

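Other cells also held ELAV family transcripts. Cluster c27, 162 unnamed cells led by spok, phm, sad and nvd, genes of ecdysone synthesis in the prothoracic gland, had 448 CPM of elav and 568 CPM of fne. The 82 cells with 2 or more UMIs of vas, the germ cell RNA helicase, had 41.7 CPM of Rbp9, with 43.4, 29.2, 64.2 and 41.7 CPM over the 4 library pairs. The same cells had 627 CPM of elav (45.3 to 887 CPM over pairs) and 5460 CPM summed over the neuronal list, and their median depth of 19328 UMIs lay above the 4069 of all kept cells. The part of these neuronal transcripts and of depth in the Rbp9 value was not tested.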
